A study of Mus musculus with 15 samples.

Results

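The genes described here were 10 transcription factors of mesenchymal cells and of endothelial-mesenchymal transition (EndMT), the change in which endothelial cells lose junctions and take on a mesenchymal programme. They were Twist1, Twist2, Prrx1, Snai1, Snai2, Zeb1, Zeb2, Meox1, Meox2 and Tcf21, chosen by name. All 10 were found among the 53465 genes of the table. The choice of these factors and of the gene lists below was made with earlier results of these data known. The study asked how the endothelium of a growing melanoma is organised into a hierarchy of cell populations. Endovascular progenitors (EVP), transit amplifying cells (TA) and definitive differentiated cells (D) were sorted by flow cytometry and profiled by RNA sequencing, with 5 libraries each and 15 in all. All 3 populations came from tumors of B16-F0, a mouse melanoma line without the transgene, collected on day 15 from CAG-GFP mice, 8 to 14 weeks old and of both sexes, whose promoter drives GFP in every host cell type. The sort took GFP positive, lineage negative, CD34 positive cells and split them on CD31 (Pecam1) and VEGFR2 (Kdr), with low staining for both in EVP, intermediate CD31 and low VEGFR2 in TA, and high staining for both in D. GFP therefore marked host origin and not the endothelial lineage. The labels do not say whether libraries came from separate animals or from pools, so p-values measured the spread between these libraries only.

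Twist1, Twist2 and Tcf21 are basic helix-loop-helix (bHLH) proteins, which bind the E-box, CANNTG, as dimers with ubiquitous partners. Snai1 and Snai2 are zinc finger repressors, and Zeb1 and Zeb2 carry clusters of zinc fingers around a homeodomain. Both families bind the E-box variant CACCTG and repress junction genes such as E-cadherin. Prrx1, Meox1 and Meox2 are homeodomain proteins. Prrx1 and the Twist factors mark embryonic and adult connective tissue, Tcf21 marks epicardial and fibroblast precursors, and Meox2 is also known as a growth-arrest homeobox gene of vascular smooth muscle and endothelium.

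Promoter sequence is shown for 5 of the factors, to illustrate where these binding letters stand, or are absent, just before the gene start. RefSeq promoter windows (GRCm38.p6) were matched for 7 of the 10 genes by symbol, and the bases before the annotated start are printed. Capitals mark an E-box, CANNTG, or the homeodomain core TAATTA, each of which was searched on both strands. The windows lie at chr2:167537945-167538194 on the plus strand for Snai1, chr12:37108290-37108539 on the plus strand for Meox2, chr1:163313711-163313900 on the minus strand for Prrx1, chr12:33957421-33957670 on the plus strand for Twist1 and chr1:91801211-91801460 on the plus strand for Twist2.
Snai1: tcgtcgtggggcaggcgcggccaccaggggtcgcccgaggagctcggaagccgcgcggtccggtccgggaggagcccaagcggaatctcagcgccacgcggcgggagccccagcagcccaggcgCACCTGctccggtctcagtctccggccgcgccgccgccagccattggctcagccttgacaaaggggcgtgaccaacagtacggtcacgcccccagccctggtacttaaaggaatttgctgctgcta
Meox2: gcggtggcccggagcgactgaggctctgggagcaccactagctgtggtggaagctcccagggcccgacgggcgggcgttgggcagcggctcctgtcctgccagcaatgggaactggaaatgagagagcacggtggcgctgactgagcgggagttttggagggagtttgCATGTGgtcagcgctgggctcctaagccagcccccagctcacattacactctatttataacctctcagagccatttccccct
Prrx1: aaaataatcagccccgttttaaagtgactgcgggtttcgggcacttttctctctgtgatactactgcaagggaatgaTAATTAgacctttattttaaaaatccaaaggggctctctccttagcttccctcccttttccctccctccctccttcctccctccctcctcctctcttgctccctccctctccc
Twist1: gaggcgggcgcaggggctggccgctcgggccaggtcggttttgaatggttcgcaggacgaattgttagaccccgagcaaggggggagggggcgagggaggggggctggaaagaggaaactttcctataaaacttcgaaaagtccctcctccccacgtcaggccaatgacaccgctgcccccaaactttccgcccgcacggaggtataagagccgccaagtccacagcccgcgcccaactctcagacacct
Twist2: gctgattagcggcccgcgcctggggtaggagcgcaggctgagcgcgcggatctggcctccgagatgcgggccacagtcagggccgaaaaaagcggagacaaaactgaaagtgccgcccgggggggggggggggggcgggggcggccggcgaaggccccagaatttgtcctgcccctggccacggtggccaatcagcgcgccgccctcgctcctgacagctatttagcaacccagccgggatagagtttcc
The Snai1 window held 1 E-box, CACCTG, which starts 126 bases before the gene. The Meox2 window held CATGTG, starting 82 bases before the gene, and the Prrx1 window held TAATTA, starting 113 bases before the gene. The other windows, those of Twist1, Twist2, Tcf21 and Zeb2, held neither motif. Among 32851 RefSeq windows of 250 bases, CANNTG was present in 66.2%, CACCTG or its reverse complement CAGGTG, which are themselves E-boxes, in 17.2%, and TAATTA in 4.84%. A match is a description of the letters and not evidence of binding.

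The deposited values are gene counts divided by a size factor for each library, called normalized counts below, and whole reads were recovered from 100% of them. Reads on genes ranged from 5394356 to 26513073 per library. Replicate 1 of every population stood apart, with 8.50% to 10.6% of its reads on Gm10800 against at most 0.701% elsewhere. The share of olfactory receptor genes with a read was 81.6% to 98.3% in those libraries and 71.0% in TA replicate 3. EVP replicate 2 and TA replicate 2 followed at 61.8% and 57.8%, and D replicate 2 was next at 24.1%. Where leaving out replicate 1 of every population, alone or with TA replicate 3, changed a call, that is stated beside it. EVP replicate 2 and TA replicate 2 were left out only singly. The 10 pan-endothelial markers, none of which was at 0 throughout a population, summed to 2246 to 4129 normalized counts in EVP against 88199 to 144314 in D. In EVP 9 of them were lower, against 7.46% of all genes, and only Tek, the angiopoietin receptor, did not pass. Pecam1 and Kdr among the markers encode the proteins used for the sort. Fibroblast markers, 10 in number, were all higher in EVP than in D, against 11.6% of all genes. They summed to 847250 to 1505580 in EVP and 1167 to 4252 in D.

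Between EVP and D, the factors fell into opposite groups. Prrx1, Twist1, Twist2, Zeb2 and Snai2 were higher in EVP, and Zeb1, Meox1 and Meox2 were higher in D. Of the 10 factors, 8 passed an adjusted p under 0.05 with limma, against 19.0% of all 25549 tested genes, and 5 of them were higher in EVP, where 11.6% of all genes were. The 3 that were lower in EVP stand beside 7.46% of all genes. With a minimum mean of 20 normalized counts, 4783 of 16661 tested genes passed. The libraries of EVP and D did not overlap for 7 factors, 4 higher and 3 lower in EVP, against 17.7% of all genes, or 10.2% higher and 7.52% lower. The median tested gene was itself 0.46 higher in EVP on the log2 scale, and relative to it the 8 called differences ran from -2.89 for Meox2 to 7.66 for Prrx1. Without EVP replicate 1 the median gene stood at 0.06, and without replicate 1 of every population at 0.17, both over fewer tested genes. In bulk samples such as these, fewer cells of a type and less RNA per cell cannot be told apart.

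Between EVP and TA, only Twist1 passed the test, higher in EVP, 1 of 10 against 3.50% of all genes, of which 1.56% were higher and 1.94% lower in EVP. Twist1, Twist2 and Prrx1, 3 of the 10, were each higher in every EVP library than in every TA library. With no overlap, 2.70% of all genes were higher and 1.59% lower in EVP, 4.29% in all. Between TA and D, 6 of the 10 passed, against 12.5% of all genes. Twist1, Twist2, Prrx1 and Zeb2 were higher in TA, where 8.21% of all genes were, and Zeb1 and Meox1 were lower, where 4.31% were. The libraries of TA and D did not overlap for 4, Twist2, Prrx1 and Zeb2 higher and Zeb1 lower in TA, against 9.25% of all genes, or 5.56% higher and 3.69% lower. These comparisons share libraries, so their values stand side by side and are not independent of each other.

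**Figure D1:**
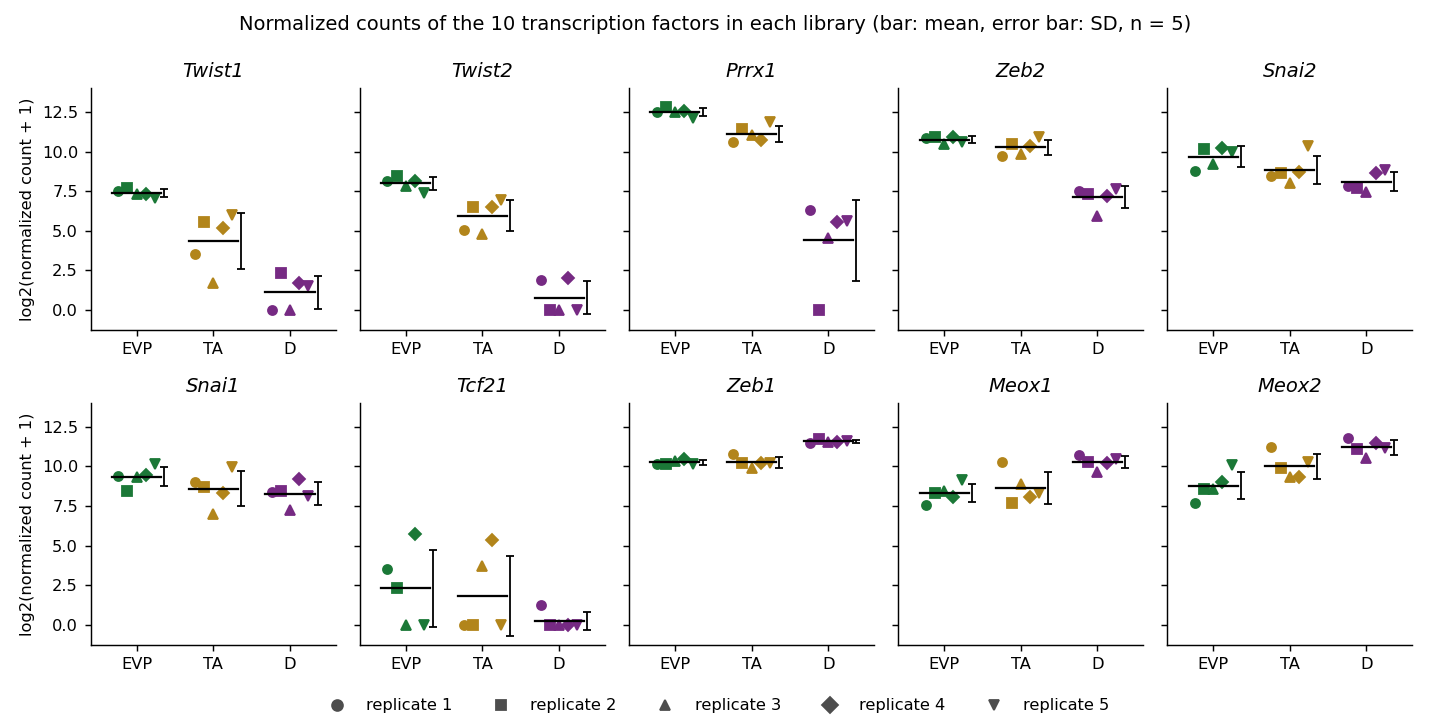
Each panel plots 1 factor, with the population on the horizontal axis and log2(normalized count + 1) on the vertical axis, 1 point per library, the bar at the mean and the error bar 1 SD over 5 libraries. Twist1, Twist2, Prrx1 and Zeb2 sit high in EVP and low in D with no overlap, while the means of Zeb1, Meox1 and Meox2 are highest in D.

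Twist1 lies on chromosome 12 of GRCm38 at 33957671 to 33959829, and acts in mesoderm and neural crest, where it represses epithelial genes. In EVP, Twist1 had normalized counts of 179, 204, 160.3, 161 and 131, listed here and below in the order of replicates 1 to 5. In TA, Twist1 had 10.3, 45.7, 2.23, 34.5 and 61.6. In D, Twist1 had 0, 4.08, 0, 2.25 and 1.81, which rest on 0, 5, 0, 3 and 3 reads. Every EVP library lay above every TA library, while TA replicate 3 lay within the range of D. The log2 difference was 6.27 ± 0.77 (SE, n = 5 per population) between EVP and D (limma, adjusted p = 9.33e-06) and 3.26 ± 0.77 between TA and D (limma, adjusted p = 0.00822). The D values rest on few reads, and the EVP to D difference ran from 4.19 to 6.80 over 13 other settings, all of which called it. With quantile normalization the TA to D difference was 1.52 and lost its call, at a limma adjusted p of 0.469.

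The EVP to TA difference of Twist1 was 3.004 ± 0.77, or 5.40-fold between means (limma, adjusted p = 0.0385). It was called in 5 of the 15 fits that left out 1 library. It lost its call without any 1 of EVP replicates 1 to 5, without TA replicates 1, 3 or 4, and without D replicates 4 or 5, with differences from 2.33 to 3.40 over all 15 fits and limma adjusted p up to 0.108. Without replicate 1 of every population it was 2.76, and without TA replicate 3 as well it was 1.79, at limma adjusted p of 0.102 and 0.148. It was also not called with edgeR on whole reads, at 2.36 and an adjusted p of 0.215, while DESeq2 called it, at 2.42.

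Twist2, at 91801461 to 91848028 on chromosome 1, is the close relative of Twist1 and is known for dermal and fibroblast precursors. In EVP, Twist2 had normalized counts of 277, 354, 229.9, 285 and 168. In TA, Twist2 had 32.7, 88.8, 26.8, 90.9 and 121. In D, Twist2 had 2.75, 0, 0, 3.005 and 0, which rest on 2, 0, 0, 4 and 0 reads. The 3 populations did not overlap at all, with EVP on top, TA between and D at or near 0. The log2 difference was 7.22 ± 0.59 between EVP and D (limma, adjusted p = 1.06e-07) and 5.18 ± 0.59 between TA and D (limma, adjusted p = 1.21e-05). The D values rest on few reads, and the EVP to D difference ran from 4.86 to 8.03 over 13 other settings, all of which called it. Between EVP and TA the Twist2 difference was 2.04 ± 0.59, with a 95% interval of 0.79 to 3.29, and did not pass (limma, adjusted p = 0.0704). It passed there with a pseudocount of 8, with DESeq2 and when only EVP and TA were fitted, at adjusted p of 0.0119, 0.00745 and 0.035.

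Of the exon bases of Twist2, 46.5% are shared with the antisense gene Gm29100. The library kit does not mark strand, so reads from shared exons cannot be told apart, and Gm29100 itself had 7.36 to 74.5 normalized counts in EVP, 0 to 114 in TA and 0 to 10.2 in D. Twist1 shares no exon with another annotated gene. Per kilobase of exon, Twist1 and Twist2 stood close in EVP, at 103 ± 16.5 and 82.8 ± 21.8 normalized counts (SD, n = 5), and their libraries overlapped.

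Prrx1, at 163245119 to 163313710 on chromosome 1, is a homeodomain factor of limb and connective tissue mesenchyme. In EVP, Prrx1 had normalized counts of 5744, 7273, 5918, 6116 and 4499. In TA, Prrx1 had 1546, 2699.6, 2107, 1696 and 3756. In D, Prrx1 had 78.3, 0, 21.9, 45.1 and 47.7. No library of a population reached the next, and Prrx1 was the factor with the highest level per kilobase in EVP, at 534 ± 89.4 normalized counts per kilobase against 213 ± 81.2 in TA and 3.49 ± 2.66 in D. The log2 difference was 8.12 ± 0.81 between EVP and D, 153-fold between means (limma, adjusted p = 9.65e-07). Between TA and D it was 6.74 ± 0.81 (limma, adjusted p = 2.13e-05).

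Between EVP and TA the Prrx1 difference was 1.38 ± 0.81, with a 95% interval from -0.33 to 3.10 (limma, adjusted p = 0.471), although no library overlapped. The spread that this test used came from all 3 populations, and without D replicate 2, where Prrx1 was at 0, the limma adjusted p was 0.0192, and when only EVP and TA were fitted it was 0.0149. The printed Prrx1 window above holds the only TAATTA among the 7 windows.

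Zeb2, at 44983632 to 45117395 on chromosome 2, followed the Twist and Prrx1 pattern. In EVP, Zeb2 had normalized counts of 1836, 1962, 1420.2, 1984 and 1538. In TA, Zeb2 had 851, 1419.7, 933, 1290.5 and 1924. In D, Zeb2 had 181, 161, 60.2, 148 and 202. EVP and TA overlapped, and both lay above D in every library. The log2 difference was 3.63 ± 0.30 between EVP and D, 11.6-fold between means (limma, adjusted p = 1.17e-07). It was 3.13 ± 0.30 between TA and D (limma, adjusted p = 1.62e-06), and 0.50 ± 0.30 between EVP and TA, with a 95% interval from -0.14 to 1.13 (limma, adjusted p = 0.492).

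Zeb1, on chromosome 18, moved the other way although it is the paralog of Zeb2 with the same binding preference. In EVP, Zeb1 had normalized counts of 1159, 1148, 1309, 1402 and 1124. In TA, Zeb1 had 1786, 1166, 943, 1192 and 1189. In D, Zeb1 had 2813, 3459, 2986, 3044 and 3121. Within D its SD was 7.72% of the mean, the lowest of the 10 factors, and the D libraries all exceeded those of EVP and TA. The log2 difference was -1.33 ± 0.16 between EVP and D, 2.51-fold higher in D between means (limma, adjusted p = 8.55e-06), and -1.33 ± 0.16 between TA and D (limma, adjusted p = 2.48e-05). Between EVP and TA its 95% interval ran from -0.35 to 0.34, around means of 1228 and 1255 normalized counts.

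The proportion of the paralogs differed between EVP and D. The ratio of Zeb2 to Zeb1 normalized counts was 1.08 to 1.71 in EVP, 0.477 to 1.62 in TA and 0.0202 to 0.0649 in D. The sum of both was 2976 ± 294 in EVP, 2539 ± 443 in TA and 3235 ± 251 in D (SD, n = 5), so the libraries of EVP and D overlapped in the sum and not in the ratio. Per kilobase of exon, Zeb1 was the higher in each population, at 119.6 ± 11.8 against 87.7 ± 12.8 normalized counts per kilobase in EVP and 300.5 ± 23.2 against 7.55 ± 2.74 in D. The lengths are of all annotated exons, 10.266 kilobases for Zeb1 and 19.942 for Zeb2. The order in EVP rests on that choice, since Zeb2 had the higher counts there. Zeb2 shares 3.27% of its exon bases with the antisense gene Zeb2os and Zeb1 shares 1.93% with Gm10125. Zeb2os had at most 35.1 normalized counts in any library and Gm10125 at most 218.

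**Figure D2:**
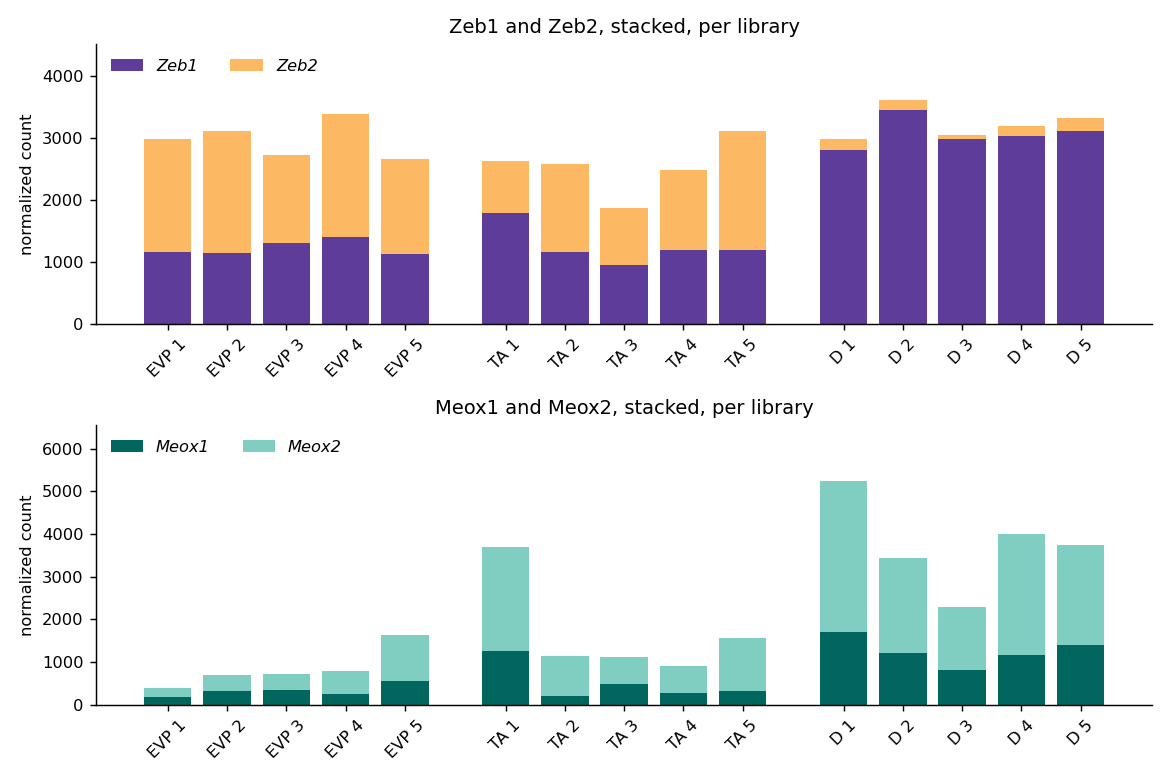
Stacked bars give normalized counts per library, Zeb1 and Zeb2 in the upper panel and Meox1 and Meox2 in the lower panel. Zeb2 makes up more than Zeb1 in every EVP library and a thin cap in D, at a ratio of 0.0202 to 0.0649, while both Meox genes rise together in D and in TA replicate 1.

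Snai2, at 14705852 to 14709395 on chromosome 16, is the Snail-family repressor called Slug in neural crest. In EVP, Snai2 had normalized counts of 442, 1161, 589.8, 1216 and 1026. In TA, Snai2 had 359, 403, 254, 417 and 1322. In D, Snai2 had 227, 211, 172, 397 and 452. EVP replicate 1 and D replicate 5 overlapped, and TA replicate 5 lay above every other library. The log2 difference was 1.60 ± 0.42 between EVP and D, 3.04-fold between means (limma, adjusted p = 0.0102). It did not pass between EVP and TA, at 0.84 ± 0.42 (limma, adjusted p = 0.353), or between TA and D, at 0.75 ± 0.42 (limma, adjusted p = 0.309).

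Snai1, at 167538195 to 167542814 on chromosome 2, encodes the short-lived Snail protein that represses E-cadherin, and its printed promoter holds CACCTG. In EVP, Snai1 had normalized counts of 685, 351, 636, 699 and 1159. In TA, Snai1 had 521, 421, 126, 316 and 999. In D, Snai1 had 331, 351, 149, 603 and 279. The populations overlapped throughout. The EVP to D difference was 1.08 ± 0.47, with a 95% interval of 0.09 to 2.07, and did not pass (limma, adjusted p = 0.136), though it did with array weights and when only EVP and D were fitted, at adjusted p of 0.0444 and 0.0461. Both Snail genes were present in every library of every population, at 126 normalized counts or more.

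Meox1, at 101877510 to 101894374 on chromosome 11, is a homeodomain factor of somites. In EVP, Meox1 had normalized counts of 189.6, 324, 355, 265 and 555. In TA, Meox1 had 1263, 208, 479, 269 and 314. In D, Meox1 had 1713, 1223, 818, 1178 and 1412. TA replicate 1 lay in the range of D and the other TA libraries in the range of EVP. The log2 difference was -1.96 ± 0.40 between EVP and D (limma, adjusted p = 0.00174) and -1.61 ± 0.40 between TA and D (limma, adjusted p = 0.0126). Between EVP and TA it was -0.35 ± 0.40 (limma, adjusted p = 0.834), and the sign turned to 0.07 without TA replicate 1.

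Meox2, at 37108540 to 37179534 on chromosome 12, is the paralog of Meox1. In EVP, Meox2 had normalized counts of 204, 385, 376, 519 and 1078. In TA, Meox2 had 2429, 939.7, 645, 642 and 1244. In D, Meox2 had 3526, 2226, 1464, 2823 and 2327. D lay above EVP in every library, and TA replicate 1 again lay in the range of D. The log2 difference was -2.43 ± 0.41 between EVP and D, 4.83-fold higher in D between means (limma, adjusted p = 0.00026).

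The TA to D difference of Meox2 was -1.20 ± 0.41 and did not pass (limma, adjusted p = 0.0670). It passed without TA replicate 1, at -1.51 and a limma adjusted p of 0.0127, and also without EVP replicate 1 or EVP replicate 5, at limma adjusted p of 0.0401 and 0.0363. Without replicate 1 of every population it was -1.37 (limma, adjusted p = 0.0121), and without TA replicate 3 as well it was -1.24 (limma, adjusted p = 0.0296). Between EVP and TA the difference was -1.23 ± 0.41 (limma, adjusted p = 0.122), and without EVP replicate 5 it was -1.55, at a limma adjusted p of 0.0308. Meox2 exceeded Meox1 in every library, by 1.06 to 1.96 times in EVP, 1.35 to 4.51 times in TA and 1.65 to 2.40 times in D, as a ratio of normalized counts.

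Tcf21, at 22817281 to 22820174 on chromosome 10, was near the limit of detection. Tcf21 had normalized counts in EVP of 10.5, 3.92, 0, 51.2 and 0, in TA 0, 0, 12.3, 39.2 and 0, and in D 1.37, 0, 0, 0 and 0. Only EVP replicate 4, TA replicate 4 and TA replicate 3 held more than 3 reads, with 64, 50 and 11. A count of 0 allows up to 3 reads, which are worth 1.81 to 10.5 normalized counts depending on the library. No difference was detectable at this depth, with limma adjusted p of 0.349 between EVP and D and 0.967 between EVP and TA, and no fold is given against D, where the 5 libraries held 1 read.

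**Figure D3:**
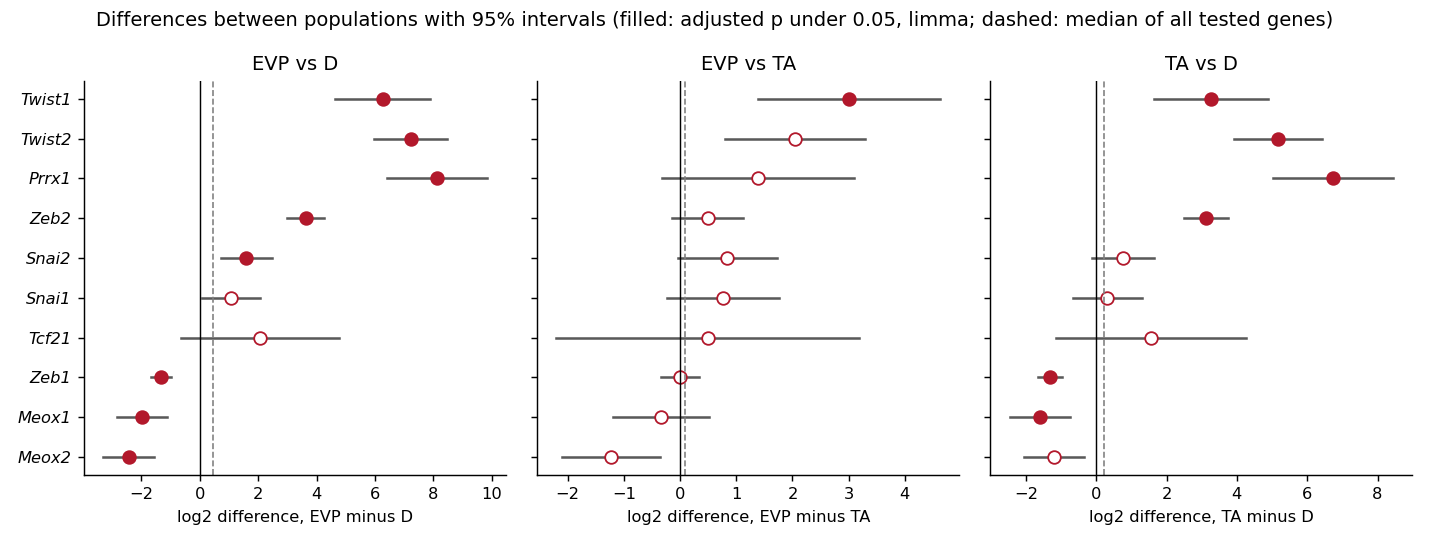
The 3 panels give the log2 difference of each factor between a pair of populations with its 95% interval from limma, filled where the adjusted p was under 0.05, and the dashed line is the median of all tested genes. Filled points lie on both sides of 0 between EVP and D, from -2.43 for Meox2 to 8.12 for Prrx1, and only Twist1 is filled between EVP and TA.

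The position of TA between EVP, set at 0, and D, set at 1, differed among the factors. Over all 4859 genes called between EVP and D the median position on the log2 scale was 0.361, and TA lay between the others for 86.7%. Zeb1 stood at 0.00, Zeb2 at 0.14, Prrx1 at 0.17 and Meox1 at 0.18, which places their TA level nearer to EVP than to D on this scale. For Prrx1 the position is a share of a wide EVP to D difference, 8.12, and does not mean similar levels. Every EVP library of Prrx1 lay above every TA library. Twist2 stood at 0.28, Twist1 at 0.48, Meox2 at 0.51 and Snai2 at 0.53. Leaving out TA replicate 3 moved Snai2 to 0.40, Twist1 to 0.37, Zeb1 to 0.07 and Meox2 to 0.58, and the other called factors by less. Positions without another TA library were not computed, so these shifts do not bound how far a position can move. Meox1 was outlying in TA replicate 1 and Snai2 in TA replicate 5. Without TA replicate 1 the EVP to TA difference of Meox1 turned to 0.07, which puts TA just beyond EVP.

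The test of whether TA lay off the middle of EVP and D called Zeb2 and Zeb1, 2 of 10, against 2.06% of all genes. The middle was the mean of the log2 values, which lies below the log2 of the average level of EVP and D. A call above it therefore does not by itself mark a level particular to TA. Over all genes, 1.81% lay above the middle, as Zeb2 did, and 0.247% below it, as Zeb1 did. Zeb2 in TA lay above that middle by 1.32 ± 0.26 (limma, adjusted p = 0.0147). Zeb1 lay below it by -0.66 ± 0.14 (limma, adjusted p = 0.0221). Zeb2 lost its call without TA replicate 2, with a limma adjusted p of 0.0518, and Zeb1 without TA replicate 2 or 3, with limma adjusted p up to 0.0616. For Prrx1 the value was 2.68 ± 0.70 and did not pass (limma, adjusted p = 0.0586), while without D replicate 1 or D replicate 2 it did, with values of 2.92 and 2.13 (limma, adjusted p = 0.025 and 0.00248). It also passed with a pseudocount of 8, a minimum mean of 20, the same total, edgeR and DESeq2, at adjusted p of 0.00666, 0.0462, 0.0367, 0.0154 and 0.000207. Without replicate 1 of every population, 4 of the 10 passed, Prrx1 and Meox1 besides the Zeb genes, against 1161 of all 19494 tested genes. Without TA replicate 3 as well the 4 were Twist2, Meox1 and the Zeb genes, against 926 of all 18610 tested genes. Calls over all genes thus rose too, from 526 of 25549 in the main fit.

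Snai1, Snai2, Meox1 and Zeb1 varied more within TA, relative to their mean, than within EVP or D, and markers of other cells varied there too. TA replicate 1, with the highest Meox1 and Meox2 and the highest Zeb1 of TA, also had the highest sum of the 10 pan-endothelial markers in TA, 63029.9 against 5632 to 32736 normalized counts in the other TA libraries. TA replicate 5, with the highest Twist1, Twist2, Prrx1, Zeb2, Snai1 and Snai2 of TA, had the lowest such sum, 5632, and the highest sums of the 10 fibroblast markers, 611636, and of the 10 mural markers, 157242. The ranges in TA were 192799 to 611636 for fibroblast and 6231 to 157242 for mural markers. None of these markers was at 0 throughout a population. Their part in the factors' levels was not tested.

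Transcripts of other cell types were detected, although the gate on GFP positive, lineage negative cells would remove GFP negative melanoma cells and most leukocytes. Their source was not tested. The 8 melanoma and melanocyte genes were all higher in TA than in D (limma), against 8.21% of all genes. They summed to 71716 to 182314 normalized counts in TA, 30759 to 70218 in EVP and 19137 to 50322 in D. Leukocyte markers, 9 of 10 usable, summed to 6738 to 38666 in TA, 2185 to 10461 in EVP and 3179.8 to 9708 in D. Keratinocyte markers, 6 in number, were all higher in TA than in D, against the same 8.21%. They summed to 1866 to 80927 in TA, 1660.2 to 8866 in EVP and 78.9 to 2880.3 in D. The 7 skeletal muscle markers summed to at most 662 in any library, and 1 of them was at 0 in every D library. All 10 fibroblast markers were higher in EVP than in D and 9 of the 10 pan-endothelial markers were lower, against 11.6% and 7.46% of all genes. These markers moved alongside the factors that moved the same way, and their part in those differences was not tested.

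**Figure D4:**
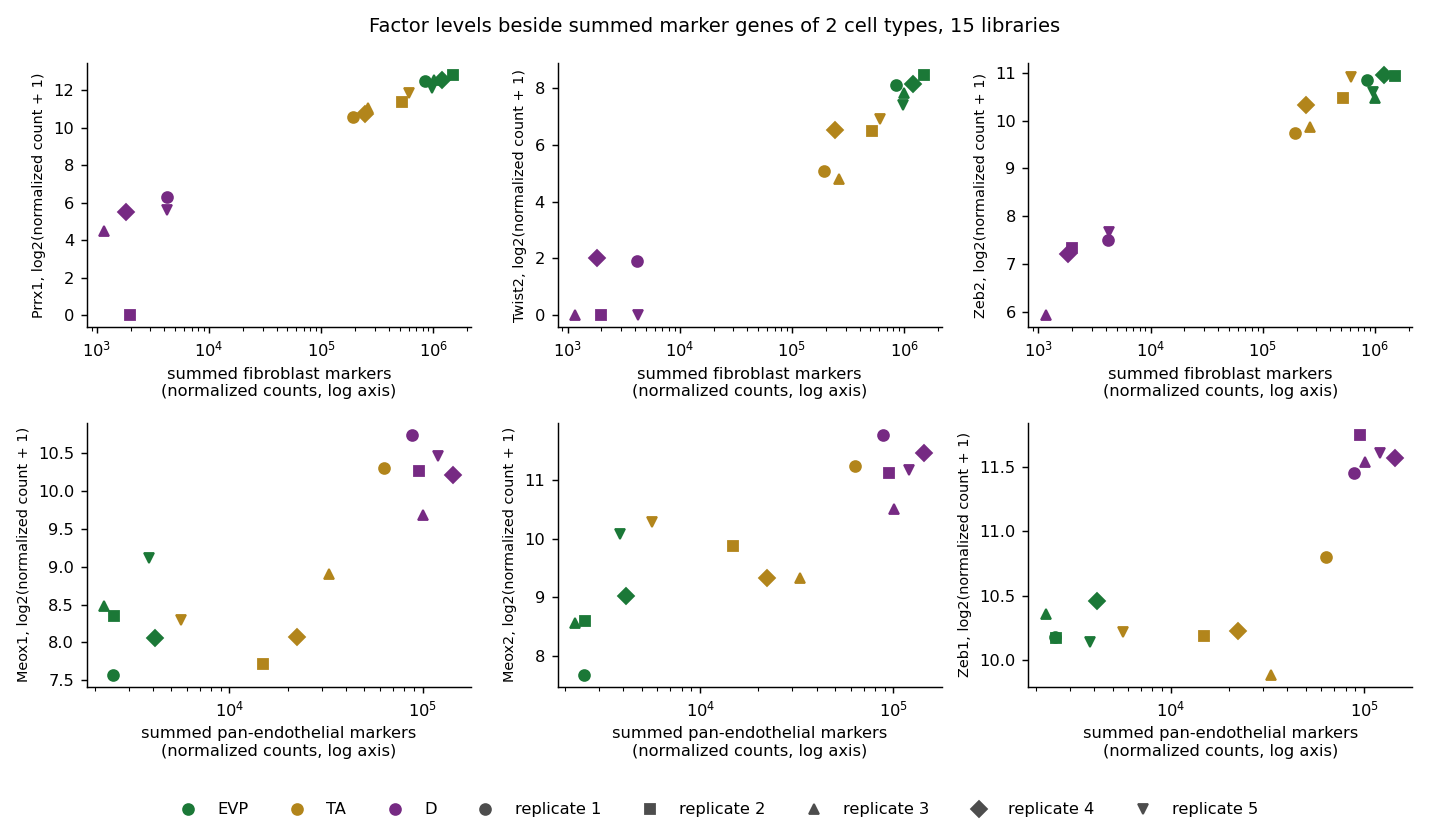
Each point is 1 of 15 libraries, with the summed normalized counts of a marker list on a logarithmic horizontal axis and log2(normalized count + 1) of a factor on the vertical axis. In the panels of Prrx1, Twist2 and Zeb2 the fibroblast sum alone separates the populations, whichever factor is plotted, and Zeb2 overlaps between EVP and TA. TA replicate 1, at a pan-endothelial sum of 63029.9, lies in or nearest to the range of D for Meox1, Meox2 and Zeb1.

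Per kilobase of exon, the order of the factors differed between populations. The length was the union of all annotated exons of a gene, and ranks between genes rest on that choice. In EVP Prrx1 led at 534 ± 89.4 normalized counts per kilobase, followed by Snai2 at 439 ± 173 and Snai1 at 436 ± 179, and each neighbour overlapped the next down to Twist2, which lay above Tcf21 in every library. In TA Meox2 led at 500.0 ± 314, and neighbours overlapped except Zeb2 over Twist2. In D Meox2 led at 1048 ± 323, then came Meox1 at 569.5 ± 147, Zeb1 at 300.5 ± 23.2, Snai1 at 211 ± 102 and Snai2 at 144 ± 61.5. Meox1 lay clear of Zeb1 there, and Snai2 lay clear of Zeb2 at 7.55 ± 2.74. The D order thus ended with Prrx1, Twist1, Twist2 and Tcf21, all at 3.49 or less.

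Across the 15 libraries, the gene outside the list whose log2 values were most like Zeb2 was Cd248, a stromal surface protein, with Pearson r = 0.989, followed by Serpinf1 and Col3a1, the last of which is also 1 of the 10 fibroblast markers. Prrx1 was most like Fat1 (r = 0.993), Col16a1 and Il33, and Twist2 most like Prelp (r = 0.985), Gfra2 and Evc2. Twist1 was most like Sec16b (r = 0.963), H6pd and Flrt2. Meox1 was most like Cav1, the caveolar coat protein (r = 0.956), Fkbp1a and 0610012G03Rik. Meox2 was most like Gm6517, Myl12a and Actn4, and Zeb1 most like Prrg2 (r = 0.965), Plekha1 and Ripply3. The highest values for Snai1, Snai2 and Tcf21 were lower, with Slc39a7 at 0.881, Rpn2 at 0.923 and Gm19246 at 0.937. Among the factors, Twist2 and Zeb2 had r = 0.960, Meox1 and Meox2 0.873, Snai1 and Snai2 0.705, and Zeb1 and Zeb2 -0.920. These values describe libraries that fall into 3 populations, which share depth and library effects, and are given without a test.

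Most other mesenchymal transcription factors outside the 10 were higher in EVP than in D, as Twist1, Twist2 and Prrx1 were. Of 17 listed, 13 could be tested between EVP and D, 11 were higher in EVP and 1, Foxf1, was lower, against 11.6% and 7.46% of all genes, with a median log2 difference of 5.70 against 0.46 over all genes. Osr1, an odd-skipped factor of connective tissue, had 1941 to 5465 normalized counts in EVP, 557 to 1760 in TA and 0 to 12.4 in D, a log2 difference of 10.10 ± 0.60 between EVP and D (limma, adjusted p = 2.58e-09). Osr2 had 680.4 to 1919.8 in EVP, 69.2 to 310.3 in TA and 0 to 3.76 in D. Foxf1, a forkhead factor of visceral mesenchyme and vessels, had 1.31 to 16.4 in EVP and 17.8 to 91.4 in D, a difference of -2.81 ± 0.71 (limma, adjusted p = 0.00799). Foxc2 did not pass, at 0.36 ± 1.52 (limma, adjusted p = 0.907). Between TA and D, 8 of the 13 were higher in TA and none was lower, against 8.21% and 4.31% of all genes.

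The partners and inhibitors of bHLH factors moved less uniformly. The E-proteins Tcf3, Tcf4 and Tcf12 dimerise with Twist and Tcf21, and the Id proteins sequester E-proteins. Of these 7 genes, 1 was higher and 3 were lower in EVP than in D, against 11.6% and 7.46% of all genes. Id1 fell from 3303 to 6373 normalized counts in D to 115 to 245 in EVP, a log2 difference of -4.73 ± 0.46 (limma, adjusted p = 7.72e-07). Tcf4 was also lower in EVP, at -2.58 ± 0.28 (limma, adjusted p = 2e-06), as was Id3 at -0.75 ± 0.19 (limma, adjusted p = 0.0104). Id2 was higher in EVP, at 1.44 ± 0.31 (limma, adjusted p = 0.00223), and Tcf12 did not pass, at 0.18 ± 0.20.

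Genes of corepression and degradation of Snail and Zeb passed the test in 2 of 10 cases, near the 19.0% of all tested genes. Btrc, a ubiquitin ligase subunit that targets Snail, was higher in EVP by 1.05 ± 0.31 (limma, adjusted p = 0.0227). Hdac1 was lower by -0.69 ± 0.16 (limma, adjusted p = 0.00347), and the other 8 did not pass. The list median was -0.33.

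Transforming growth factor beta (TGF-beta) signalling is the best known input of EndMT, and 5 of its 12 listed genes were higher and 3 lower in EVP than in D, against 11.6% and 7.46% of all genes. Tgfbr2, the type II receptor, had 6579 to 23131 normalized counts in EVP and 2338 to 3427 in D, a log2 difference of 2.11 ± 0.26 (limma, adjusted p = 8.19e-06). Tgfb3 was higher by 4.37 ± 0.79 (limma, adjusted p = 0.000487), and Tgfb1 was lower by -2.14 ± 0.56 (limma, adjusted p = 0.00996). Eng, the endothelial co-receptor endoglin, was lower by -3.88 ± 0.33 (limma, adjusted p = 1.88e-07). Smad2, Smad3 and Smad4, the signal carriers, and the inhibitor Smad7 did not pass. Smad2 came near, at -0.73 ± 0.25 (limma, adjusted p = 0.0525), with every EVP library below every D library.

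Of 12 mesenchymal readouts, 9 were higher in EVP than in D, against 11.6% of all genes, none was lower, and the median log2 difference was 2.99 against 0.46 over all genes. Postn, the matrix protein periostin, had 24434 to 64640 normalized counts in EVP, 7784 to 38857 in TA and 163 to 267 in D, a difference of 7.57 ± 0.38 (limma, adjusted p = 3.22e-10). Vim, which encodes vimentin and is often read as a mesenchymal marker, had 22938 to 34572 in EVP and 21331 to 39835 in D (limma, adjusted p = 0.997). Sparc did not pass either, at 0.24 ± 0.26. Of 13 junction genes, 3 were higher and 5 lower in EVP than in D, against 11.6% and 7.46% of all genes, and 5 did not pass, the endothelial Jam2 and the epithelial Ocln, Cldn4, Cldn7 and Crb3. Jam2 came near, at -1.04 ± 0.37 (limma, adjusted p = 0.058), with every EVP library below every D library. The endothelial Cdh5, Cldn5, Esam and Pecam1 and the shared Tjp1 were lower in EVP, with Esam at -6.67 ± 0.63 (limma, adjusted p = 5.08e-07). Pecam1 among them was used for the sort.

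The epithelial Cdh1, Cldn3 and Epcam were higher in EVP than in D. Cdh1, which encodes E-cadherin, had 44.2 to 179 normalized counts in EVP, 144 to 973 in TA and 0 to 87.9 in D, a log2 difference of 4.61 ± 0.99 (limma, adjusted p = 0.0024). Of 7 tested epithelial factors that oppose Zeb and Snail, 2, the regulators of epithelial splicing Esrp1 and Esrp2, were higher in EVP than in D, against 11.6% of all genes, and 5 did not pass. Esrp2 had 24.6 to 72.0 in EVP, 52.3 to 419 in TA and 0 to 1.37 in D, a difference of 5.06 ± 0.66 (limma, adjusted p = 1.75e-05). Beside these values, 3 of the 6 keratinocyte markers were higher in EVP than in D, against 11.6% of all genes, and their part was not tested.

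**Figure D5:**
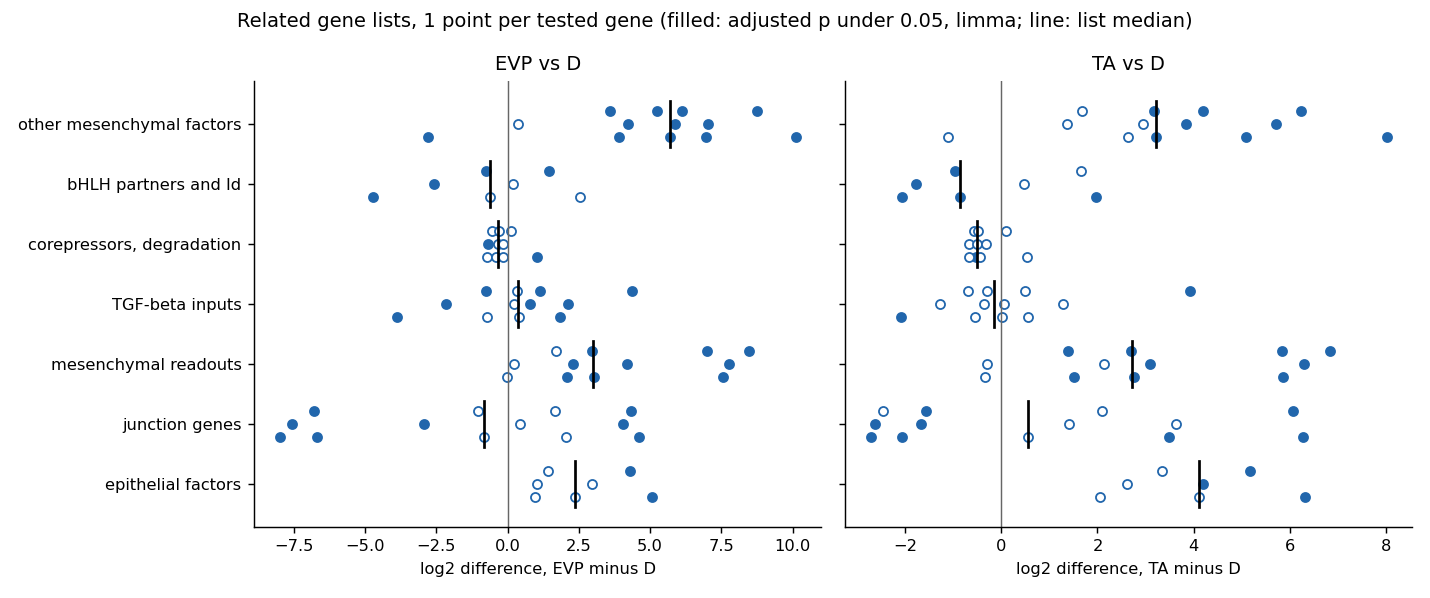
Each point is 1 tested gene of a list, with its log2 difference between EVP and D on the left and between TA and D on the right, filled where the limma adjusted p was under 0.05, and the line is the list median. The other mesenchymal factors and the mesenchymal readouts lie mostly to the right of 0, with medians of 5.70 and 2.99 between EVP and D, and the corepressors lie close to 0.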

How the data were processed

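Processed RNA sequencing values of 15 libraries, 5 each of EVP, TA and D, were used. Libraries were made by a modified Smart-Seq2 protocol and Nextera XT, which does not mark strand. The authors aligned reads with STAR 2.5.3a to mm10 (GRCm38), counted them per Ensembl gene with HTSeq-count, and the deposited values are a signal, counts divided by DESeq2 1.10.1 size factors per library. The strand setting of the counting is not given in the sources used here. The authors' own tables of fold changes and p-values for each pair of populations were not used. For edgeR and DESeq2, whole reads were recovered by dividing by the value of 1 read (100% of values within 1%), and edgeR called 3849 and DESeq2 5546 genes between EVP and D.

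Values were tested as log2(normalized count + 1) with limma 3.58.1 (R 4.3.3), moderated with a trend, in one fit of the 3 populations over the 25549 genes averaging 5 or more normalized counts across libraries, two-sided, with Benjamini-Hochberg adjustment over all of them and a threshold of 0.05. Differences are on this scale and understate changes of low genes. Intervals are 95% intervals of the moderated fit, and counting floors of 3 reads cover counting error only. The fit was tested on simulated data. edgeR 4.0.16, DESeq2 1.42.0, other pseudocounts, filters, scalings, weights and left-out libraries were alternatives. Levels per kilobase divide by the union of exons in GENCODE (99.8% of genes matched). Genes named were the factors, the genes of the listed groups and markers (in each, those with the smallest and largest adjusted p first), the 3 genes most like each factor by Pearson correlation, and overlapping genes. Foxf1, Id2, Id3, Tgfb1, Tgfb3, Smad2, Jam2, Cdh1, Cldn3 and Sparc were picked from the lists after their values were seen. The members and lists were chosen with earlier results of these data known.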

Additional observations from a re-analysis of the deposited data

Results flagged for a closer look

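A sample was singled out where its gap to the nearest of the other libraries of its population was large against the whole range (Dixon's test), which chance alone does in about 1 in 20 groups. Tcf21 in EVP stood at 51.2 normalized counts in replicate 4, from 64 reads, with the other 4 libraries at 0 to 10.5. Tcf21 in D stood at 1.37 in replicate 1, which is 1 read, with the others at 0. Any single read would have been singled out there, so that flag carries no information. Meox1 in TA reached 1260 in replicate 1, against 208 to 479 in the others, and the pan-endothelial marker sum of that library, 63029.9, was also the highest of TA. Snai2 in TA reached 1320 in replicate 5, against 254 to 417 in the others, in the library with the highest fibroblast and mural sums of TA. The part of those markers was not tested.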

How the results depend on the processing

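Of 40 results, 10 factors in 4 comparisons, 17 passed the test and 13 of these kept their call and direction in every alternative, including all 8 between EVP and D. The exceptions were Twist1 between EVP and TA, Twist1 between TA and D (quantile normalization only), and Zeb1 and Zeb2 in TA against the mean of EVP and D, where Zeb1 also missed with libraries scaled to the same total (adjusted p = 0.0526). No called difference changed sign, and the cause of the changes was not tested. The number of factors called between EVP and TA, 1 of 10, was 0 with a pseudocount of 0.5, no filter, quantile normalization, array weights, edgeR, and without replicate 1 of every population with or without TA replicate 3. It was 2 with a pseudocount of 8 and with DESeq2, 3 when only those populations were fitted, and 0 to 2 when 1 library was left out. Over all genes, 1166 of 25549 passed with a pseudocount of 8, 1900 of 25549 with DESeq2 and 661 of 27300 with only those populations. In TA against the mean, the number of factors called was 4 with DESeq2, without replicate 1 of every population, and without TA replicate 3 as well. With 1 library left out it was 0 to 3. That contrast cannot be fitted with only 2 populations.

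Over all genes, the 4859 calls between EVP and D became 7609 with array weights. The 893 between EVP and TA became 1900 with DESeq2, 522 without replicate 1 of every population, 60 without TA replicate 3 as well, and 428 to 1209 with 1 library left out, the lowest counts being 428 without EVP replicate 2, 471 without EVP replicate 3 and 568 without TA replicate 3. The 3199 between TA and D became 2117 with quantile normalization and 5054 with array weights. The 526 in TA against the mean became 325 with no filter and with quantile normalization, 841 with array weights, 1544 with DESeq2, 1161 without replicate 1 of every population, 926 without TA replicate 3 as well, and 193 to 786 with 1 library left out, the lowest being without TA replicate 2. The split of calls between EVP and D, 2952 higher and 1907 lower in EVP, was 1920 and 1983 with quantile normalization, which moved the median gene to -0.05. The split between EVP and TA, 398 and 495, was 243 and 716 at the same total and 214 and 449 with edgeR.

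The replicate block gave 5710, 1262, 4047 and 918 calls in the 4 comparisons and changed no call of a factor. No label says that a number marks shared animals or a shared day. Same-number correlations ran from -0.14 to 0.69, below 0.1 for replicate 2 or 3 in each comparison, so the numbers were not taken as pairs. In 12 of 15 cases a library correlated best with its own number, replicates 1, 2, 4 and 5 in every comparison and replicate 3 in none, which is a hint of pairing from the data and not from the design.

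Signs turned only where no call was made. For EVP against TA, Tcf21 was -0.057 with quantile normalization, -0.064 with array weights and -0.26 without replicate 1 of every population. Meox1 there was 0.13 with array weights, 0.25 without replicate 1, 0.47 without TA replicate 3 as well, and -0.58 to 0.065 with 1 library left out. Zeb1 was 0.064, 0.15 and 0.070 under the same 3 settings and -0.099 to 0.13 with 1 library left out. Snai1 between TA and D was -0.024 to 0.72 with 1 library left out. In TA against the mean, Twist1 was -0.38 with a pseudocount of 8 and -0.94 with quantile normalization. Meox2 was -0.30 with array weights, -0.36 without replicate 1 and -0.24 without TA replicate 3 as well. Snai1 was 0.19 without replicate 1 and TA replicate 3. Snai2 was 0.081 at the same total, 0.086 with array weights, 0.12 with edgeR and with DESeq2 and 0.21 without replicate 1 and TA replicate 3. With 1 library left out, this contrast ran from -0.27 to 0.80 for Twist1, -0.35 to 0.99 for Tcf21, -0.29 to 0.19 for Meox2, -0.56 to 0.18 for Snai1 and -0.43 to 0.17 for Snai2. Between 3 reads and 0 no difference can be read. That limits Tcf21 in 4 EVP, 3 TA and all 5 D libraries, and Twist1 and Twist2 in 4 D libraries each.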
